A study of Mus musculus with 18 samples.

Results

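The genes described here encode the protein parts of the cytosolic ribosome. They were taken as all protein-coding genes whose symbol starts with Rpl or Rps and a digit, with the Rplp genes and Rpsa and without the Rps6k kinases, after transcripts had been summed per gene with the GENCODE M21 annotation. Of 92 such genes in the annotation, 88 are in the files, among 12039 protein-coding genes and 13594 genes in all. By name, 53 belong to the large subunit and 35 to the small subunit. Rpl10l, Rpl36-ps4, Rpl39l and Rpl9-ps1 are not analysed here. The symbol rule also takes in 4 genes named as retrocopies (Rpl10-ps3, Rpl36a-ps1, Rpl9-ps6 and Rps12-ps3). It takes in Rps19bp1, which encodes a protein that binds RPS19, as well. All 88 genes passed the filter on low values (a mean of 1 FPKM in some group) and were tested.

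RNA was measured in cardiac tissue of wild-type mice, of the C57BL/6 strain per the series title, after 28 days of treatment in 3 groups of 6 libraries. The groups received saline, angiotensin II (AngII, a peptide that raises blood pressure) at 500 ng per kg per min, or the same AngII dose with ethoxysanguinarine (ETH, a plant alkaloid) at 10 mg per kg per day. The study asked how ETH changes gene expression in AngII-infused mice. The labels do not say that each library is a separate animal or which part of the heart was taken, so a p-value here reflects just the spread among these libraries, which may be technical. Values are taken as FPKM (fragments scaled by transcript length and by the library's total), a unit inferred from the values. Read that way, a level of 1 FPKM over 1 kb corresponded to between 63.9 and 80.9 sequenced fragments in a library. The transcripts listed for AngII+ETH are not the same set as those for the other groups, so any difference of AngII+ETH from another group cannot be told apart from that of the sets.

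The cytosolic ribosome joins a small subunit, which reads the messenger RNA, with a large subunit, which forms the peptide bond and carries the exit tunnel. Most of its proteins are made in step with each other in every cell. Their messenger RNAs typically begin with a run of pyrimidines (the terminal oligopyrimidine, or TOP, element), through which mTORC1 controls their translation. A few members have paralogs that can take their place. Rpl3l, found in heart and skeletal muscle, is the paralog of Rpl3, whose protein reaches towards the peptidyl transferase centre.

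Sequences around the members' start sites were read from RefSeq promoters on build GRCm38.p6, which held 64 of the 88 genes with 76 promoters. A TOP-like run was searched on the gene's strand as a C followed by at least 7 bases that are each C or T, beginning within 5 bases of the annotated start. It was found in 21 of the 76 member promoters (27.6%) and in 1435 of 32851 promoters of all genes (4.37%). Each sequence below covers the 30 bases before and the first 20 bases after the annotated start, with the run in capitals. The first 4 are the members with the longest runs among those beginning within 1 base of the start. Those of Rpl22l1, Rpl22 and Rpl3l are shown because the comparisons between libraries turn on these paralogs. No sequence is given for Rpl3.
Rpl18 (chr7:45718041-45718090, plus strand): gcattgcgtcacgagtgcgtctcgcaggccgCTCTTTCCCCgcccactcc
Rps6 (chr4:86857348-86857397, minus strand): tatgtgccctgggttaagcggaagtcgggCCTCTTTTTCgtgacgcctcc
Rpl38 (chr11:114668550-114668599, plus strand): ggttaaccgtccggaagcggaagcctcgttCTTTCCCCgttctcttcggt
Rps15a (chr7:118116128-118116177, minus strand): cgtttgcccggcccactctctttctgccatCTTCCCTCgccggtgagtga
Rpl22l1 (chr3:28805478-28805527, plus strand): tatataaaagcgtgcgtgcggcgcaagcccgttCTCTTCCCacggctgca
Rpl22, first start (chr4:152324406-152324455, plus strand): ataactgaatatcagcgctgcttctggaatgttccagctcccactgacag
Rpl22, second start (chr4:152325696-152325745, plus strand): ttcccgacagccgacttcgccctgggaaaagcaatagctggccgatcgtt
Rpl3l, first start (chr17:24727796-24727845, plus strand): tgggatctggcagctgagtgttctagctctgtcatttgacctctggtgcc
Rpl3l, second start (chr17:24732655-24732704, plus strand): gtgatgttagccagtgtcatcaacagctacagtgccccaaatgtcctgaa
In Rpl22l1 the run is 8 bases long and begins at base 4. No annotated start of Rpl22 or Rpl3l holds such a run in the window searched. A match or its absence describes these letters only.

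The members were among the abundant RNAs of the tissue. Mean level over the 18 libraries was at least 100 FPKM in 68 of the 88 genes, between 10 and 100 in 18 and under 10 in 2. The highest mean levels per length were 729 FPKM for Rplp1, a protein of the stalk that recruits elongation factors, and 617 for Rps2. Rps14 (538), Rpl13 (496) and Rplp0 (450), the base of that stalk, followed. The lowest were 1.62 FPKM for Rpl36a-ps1, 9.47 for Rps19bp1, 11.3 for Rpl7a, 13.7 for Rpl7l1, a paralog of Rpl7, and 16.4 for Rpl10-ps3. The value of Rpl7a comes only from a transcript annotated as non-coding, so it does not give the level of its protein-coding RNA. Reads of near-identical copies may have been split between a gene and its retrocopies, so levels of the -ps genes and of their parents are uncertain.

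Most members varied little between libraries. The coefficient of variation over the 18 libraries had a median of 15.2% for the members and 27.4% for all 11704 genes tested, and 74 members lay below the latter. Rpl24 (6.30%), Rpl6 (6.56%) and Rplp0 (8.47%) varied least. Rpl7a, Rpl17, Rps27a and Rpl3l exceeded 50%. The first 3 of these have transcripts that are listed at or near 0 in some libraries and high in others.

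**Figure D1:**
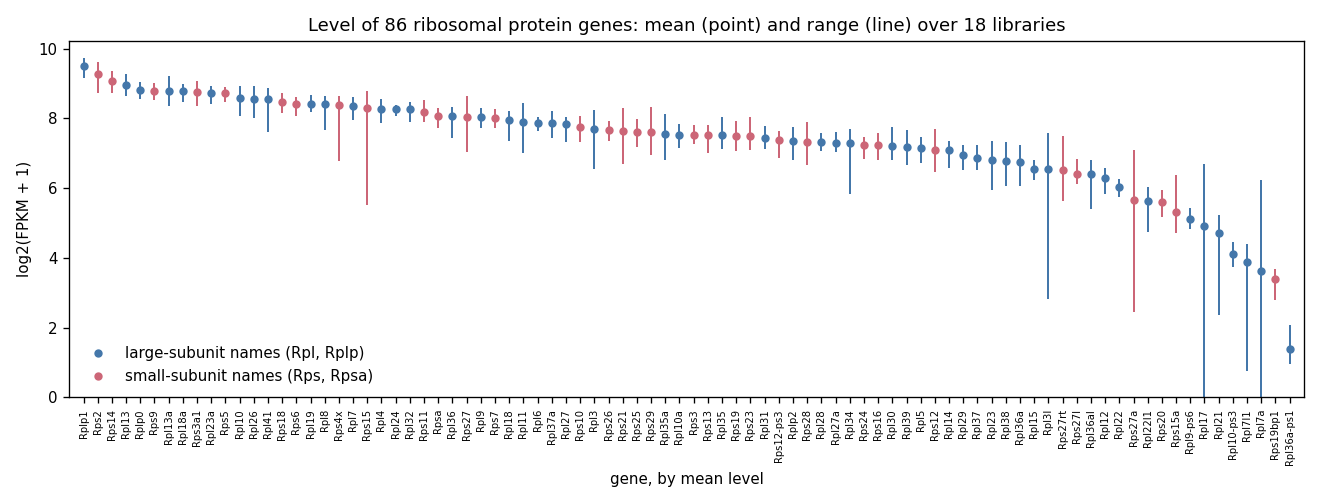
Mean level of 86 of the 88 genes on the log2(FPKM + 1) scale (points) with the range over 18 libraries (lines), ordered by mean and coloured by subunit name. Most ranges are short, and long ranges that reach 0 belong to Rpl17 and Rpl7a.

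Rpl17, a protein of the exit tunnel, had levels that differed widely between libraries of the same group. It was 0, 43.7, 0.091, 68.5, 0.20 and 13.6 FPKM in saline replicates 1 to 6. The AngII replicates held 102, 42.1, 34.7, 0, 49.9 and 0.11 FPKM, and the AngII+ETH replicates 33.6, 52.3, 44.96, 37.8, 5.66 and 0.064. High and low libraries were thus found in every group. Rpl7a, for which only a transcript annotated as non-coding is listed, was at 0 in 9 libraries and reached 74.6 FPKM. Every cell needs these genes, so the zeros are reported as listed values only.

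Rps27a, which encodes ubiquitin fused to a small-subunit protein, had a median of 51.1 FPKM under saline (range 21.1 to 134), 52.3 under AngII (37.4 to 77.5) and 35.97 under AngII+ETH (4.44 to 69.2). Its protein-coding transcript was listed at 0 in 8 libraries, where the whole level came from transcripts annotated as non-coding. Over all members, such transcripts made up 7.83% ± 1.30 (SD, n = 18) of the summed level, from 5.26 to 10.6% by library.

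The libraries differed in their atrial and ventricular markers within every group. Myl7, the light chain of atrial myosin, stood at 0 in 1 library per group, namely replicate 5 of saline, 3 of AngII and 4 of AngII+ETH. Its ventricular counterpart Myl2 reached only 3.77 FPKM in replicate 6 of saline and 3.37 in replicate 5 of AngII. The 8 ventricular markers summed to 276 to 12486 FPKM under saline, 352 to 12197 under AngII and 2512 to 13753 under AngII+ETH. Over the whole series, Irx4 and Kcne1 were at 0 in some libraries. The 9 atrial markers summed to 212 to 23833, 404 to 55411 and 303 to 34598 FPKM, with Myl7, Sln and Bmp10 at 0 in some. Markers of cardiomyocytes in general, 8 of 8 listed, summed to 3289 to 10913 FPKM over all libraries, although Mybpc3 was at 0 in some. Of 8 adipocyte markers 6 are in the files, with sums of 182 to 3365 FPKM under saline, 246 to 386 under AngII and 279 to 518 under AngII+ETH, and Adipoq, Plin1, Cidec, Retn and Cfd were at 0 in some libraries.

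The ribosomal protein genes tended to be high or low together in a library, and libraries of each kind were found in every group. Their summed level was 18695 ± 2029 FPKM under saline, 19185 ± 2291 under AngII and 19602 ± 1803 under AngII+ETH (SD, n = 6 each). As a share of the summed level of all genes this was 4.51% ± 0.478, 4.46% ± 0.427 and 4.62% ± 0.398. The group means lay within 1 SD of each other. The lowest sum was 15948 FPKM in AngII replicate 3 and the highest 22145 in saline replicate 4.

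Counting members above their own median over the 18 libraries showed the same spread within groups. In AngII, 81 of 88 genes lay above it in replicate 6 and 75 in replicate 1, but 11 in replicate 3 and 12 in replicate 4. In saline the count ran from 11 in replicate 2 to 73 in replicate 4, and in AngII+ETH from 17 in replicate 4 to 75 in replicate 5. The other genes moved as well. The median deviation from a gene's own median was 0.21 log2 units for the members and 0.19 for all genes in saline replicate 4. In AngII replicate 3 it was -0.28 and -0.12, and in AngII replicate 6 it was 0.16 and 0.033.

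**Figure D2:**
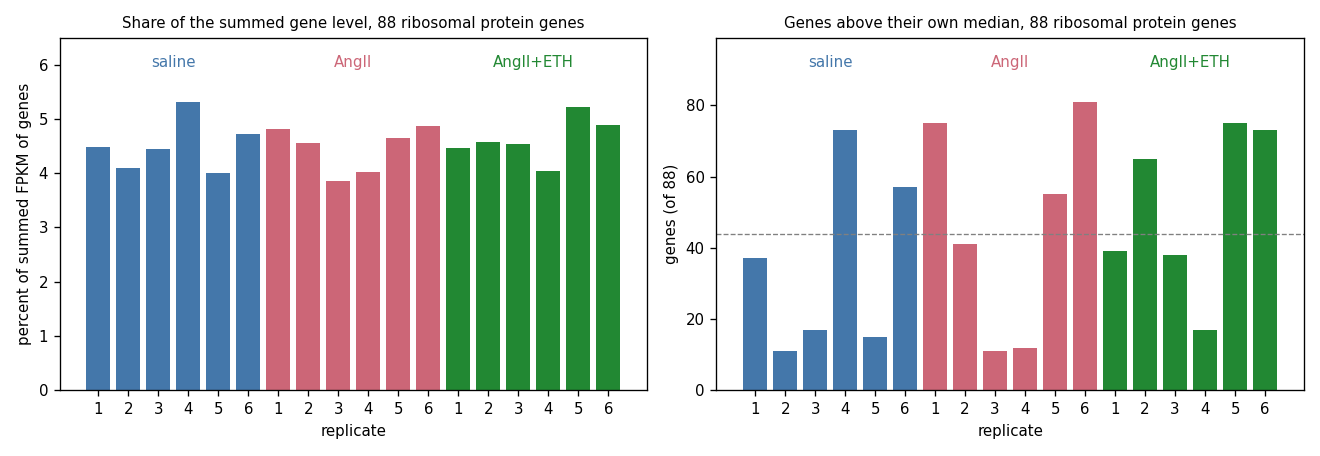
Share of the 88 genes in the summed FPKM of all genes (left, percent) and the number of the 88 genes above their own median over 18 libraries (right, dashed line at 44), per replicate and coloured by group. The share lies between 3.85 and 5.32%, and the counts swing from 11 to 81 within the AngII group.

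Rpl3 and its muscle paralog Rpl3l ran in opposite directions along the ventricular marker Myl2. Rpl3l ran from 6.01 to 191 FPKM over the 18 libraries, a 31.7-fold range, and Rpl3 from 93.4 to 301 FPKM, a 3.23-fold range. Their sum stayed between 260 and 334 FPKM, a 1.28-fold range (mean 298.9 ± 21.9, SD, n = 18). The coefficient of variation was 58.3% for Rpl3l, 29.9% for Rpl3 and 7.33% for the sum. The narrow range of the sum rests on Rpl3 transcripts not annotated as protein-coding, such as a transcript annotated as retaining an intron. With protein-coding transcripts only, an alternative chosen after seeing the data, the sum ran from 162 FPKM in saline replicate 1 to 331 in AngII replicate 1, a 2.04-fold range with a coefficient of variation of 17.9%. Rpl3 alone then spanned 51.8 to 287 FPKM.

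By group, the overlap was broad. Rpl3l had a median of 63.2 FPKM under saline (range 6.40 to 191), 111 under AngII (6.01 to 142) and 101 under AngII+ETH (36.7 to 158). Rpl3 had a median of 217 FPKM under saline (93.4 to 301), 196 under AngII (118 to 274) and 209 under AngII+ETH (121 to 297). Neither gene separated the groups. The share of Rpl3l in the pair was lowest in AngII replicate 5 (2.14%) and saline replicate 6 (2.22%), the libraries with the least Myl2. It was 67.1% in saline replicate 5, 56.4% in AngII+ETH replicate 4 and 54.6% in AngII replicate 3, the highest values and the libraries with Myl7 at 0. Rpl3l exceeded Rpl3 in 4 libraries, these and AngII+ETH replicate 1. With protein-coding transcripts only, Rpl3l exceeded Rpl3 in AngII replicate 2 as well (105 and 84.8 FPKM).

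Across the 18 libraries Rpl3l followed Myl2 with Pearson's r = 0.979 and Spearman's rho = 0.969 (two-sided permutation p = 1e-05 for each, the smallest that 100000 resamples can give). Rpl3 ran against Myl2 with r = -0.937 and rho = -0.911 (permutation p = 1e-05 for each, again the smallest possible). The 3 relations computed, with Rpl3 against Rpl3l as the third (r = -0.937, rho = -0.901), kept an adjusted p of 1e-05. Leaving out saline replicate 6 and AngII replicate 5, the libraries farthest from the median of Myl2, gave r = 0.971 for Rpl3l and -0.931 for Rpl3. With protein-coding transcripts only, Rpl3l was unaffected and Rpl3 ran against Myl2 with r = -0.723 (permutation p = 0.001) and rho = -0.723 (permutation p = 0.00086), and with r = -0.633 without those 2 libraries.

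Over all annotated transcripts, the relation held within each group of 6 libraries. For Rpl3l and Myl2, r was 0.998 under saline, 0.976 under AngII and 0.976 under AngII+ETH (exact permutation, p = 0.00139, 0.00417 and 0.00556). For Rpl3 and Myl2, r was -0.960, -0.901 and -0.983 (exact permutation p = 0.00972, 0.0153 and 0.00139). From the protein-coding transcript of Rpl3 alone these were -0.749, -0.737 and -0.955 (exact permutation p = 0.0819, 0.0778 and 0.00278), so the relation passed only in the AngII+ETH group. Among 11703 genes, Rpl3l took place 4 from the top by its r with Myl2, and Rpl3 place 66 from the bottom. These relations were computed after the data had been seen. In bulk tissue, fewer cells of a type and less RNA per cell cannot be told apart.

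**Figure D3:**
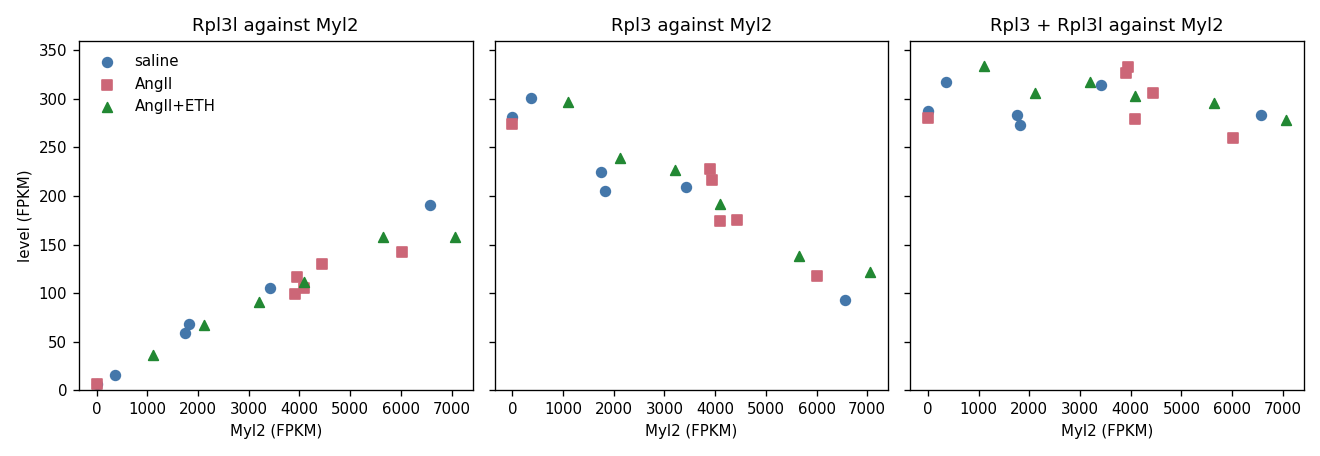
Level of Rpl3l (left), Rpl3 (middle) and their sum (right) against the level of Myl2, all in FPKM, with 1 point per library and symbols by group. Rpl3l climbs from 6.01 to 191 FPKM and Rpl3 descends from 301 to 93.4 as Myl2 rises, while the sum of all annotated transcripts stays between 260 and 334 FPKM.

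A chamber marker level was set as the mean log2 level of Myl7, Sln and Myl4 minus that of Myl2 and Myl3, and its slope was tested with limma beside group over all 11704 genes. Rpl3 rose by 0.082 log2 units per unit towards atrial markers (SE 0.00929, adjusted p = 1.7e-05) and Rpl3l fell by 0.21 (SE 0.0377, adjusted p = 0.00057). Without the 5 libraries in which Myl7 or Myl2 was under 10 FPKM, the slopes were 0.19 (adjusted p = 0.0073) and -0.47 (adjusted p = 0.0062). These slopes, too, were computed after the data had been seen.

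Of the other members, many rose slightly with the atrial markers, but so did many genes. With Rpl3, 37 of the 88 members passed with a positive slope, beside 33.4% of all tested genes. Rpl3l was the only member that passed with a negative slope, beside 7.76% of all genes. Without the 5 libraries, 12 members passed upwards, beside 10.8% of all genes, and Rpl3l alone downwards, beside 2.11%. Positive counts were 19 without AngII replicate 3 and 22 without AngII+ETH replicate 4, beside 31.8 and 29.3% of all genes. The direction of the rest depended on scaling. With median-of-ratios scaling, 6 members passed upwards (Rpl3, Rps12, Rpl36al, Rpl36a, Rpl10 and Rpl10-ps3) and 4 downwards (Rpl3l, Rps2, Rpl10a and Rpl24), beside 17.3 and 17.1% of all genes. Rpl3 and Rpl3l kept their direction and their call with median-of-ratios scaling, with equal sums and with each library left out in turn. All these slopes are from all annotated transcripts. None was computed from protein-coding transcripts only, which weakened the relation of Rpl3 to Myl2.

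The treatment comparisons gave no member past the threshold, an adjusted p under 0.05 from limma with Benjamini-Hochberg adjustment over 11704 genes. For AngII against saline, 0 of 88 members passed, beside 0.00854% of all genes (1 gene). Without adjustment, 2 members had p under 0.05 (2.27%), beside 9.06% of all genes. Between AngII+ETH and AngII, 0 members passed, beside 0% of all genes, and 0 had an unadjusted p under 0.05, beside 1.91%. Between AngII+ETH and saline, 0 members passed, beside 0.00854% of all genes. In that comparison 3 members had an unadjusted p under 0.05 (3.41%), beside 7.51% of all genes. The last comparison shares its samples with each of the other comparisons.

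As a group the members moved by little. Their median log2 fold change was 0.019 for AngII against saline, beside -0.057 over all tested genes, and it turned to -0.028 when libraries were scaled to equal sums. It was 0.040 for AngII+ETH against AngII, beside 0.020, and 0.058 for AngII+ETH against saline, beside -0.033. Values above 0 were found in 55, 63 and 66 of the 88 members, beside 39.2, 56.8 and 43.7% of all genes. For AngII against saline this count depended on scaling, with 68 members above 0 after median-of-ratios scaling, beside 48.1% of all genes, 48 after quantile normalization, beside 51.4%, and 31 with equal sums, beside 31.8%. The SD of the members' median deviation within groups was 0.157 log2 units, more than any of these medians. This SD is that of single libraries and includes shifts shared with other genes. Whether the members shift together between groups was not tested.

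**Figure D4:**
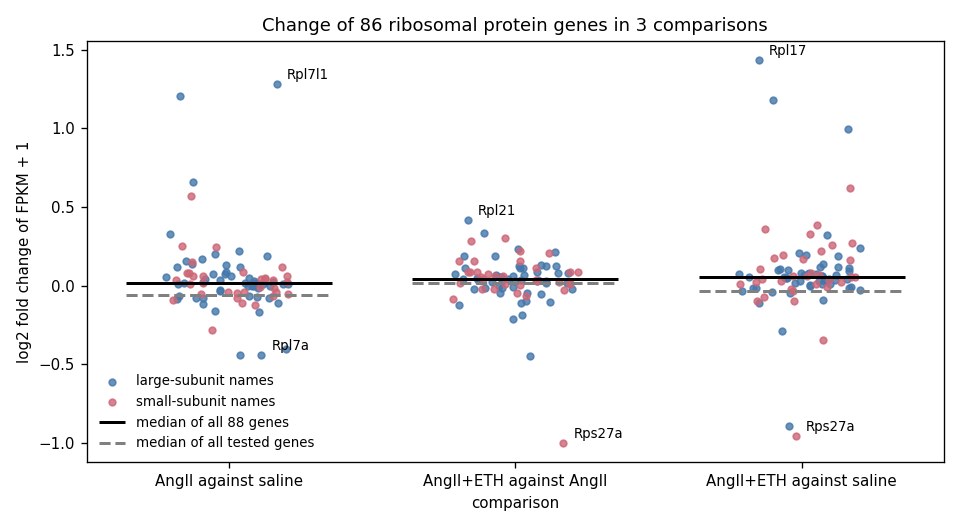
Log2 fold change of FPKM + 1 for 86 of the 88 genes (points, coloured by subunit name) in 3 comparisons, with the median of the 88 genes (solid line) and of all 11704 tested genes (dashed line). Most points lie close to 0, and the far ones, such as Rpl7l1 at 1.28 in AngII against saline, include genes with a wide spread between libraries.

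For AngII against saline, members with the smallest p upwards included Rpl7l1, Rpl10a, Rps13 and Rps15. Rpl7l1 was 0.702, 7.66, 18.2, 17.4, 3.88 and 3.62 FPKM in the saline replicates and 18.5, 16.6, 18.7, 18.2, 10.0 and 15.7 in the AngII replicates. Saline was spread over the whole range, and AngII lay near the top of it, so the groups overlapped. Its longer transcript was at 0 in saline replicate 5. The difference was 1.28 log2 units (SE 0.483, limma adjusted p = 0.488). Rps13 was 128 to 188 FPKM in saline (median 154) and 142 to 224 in AngII (median 185), a difference of 0.24 (SE 0.122, adjusted p = 0.576). Rps15, near the decoding site of the small subunit, had 44.3 FPKM in saline replicate 2 and 228 or more in the other saline libraries.

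Rpl10a, which forms the mobile L1 stalk, depended on which transcripts were summed. From transcripts common to all files it was 142 to 182 FPKM under saline (median 163), 168 to 208 under AngII (median 181) and 181 to 226 under AngII+ETH (median 205). Saline and AngII+ETH overlapped by a narrow margin. In limma, the differences were 0.19 for AngII against saline (SE 0.0908, adjusted p = 0.557) and 0.32 for AngII+ETH against saline (SE 0.0908, adjusted p = 0.406).

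A further protein-coding transcript of Rpl10a is listed only in the saline and AngII files and is not in these sums. It was at 79.4, 65.2, 53.4 and 12.1 FPKM in saline replicates 4, 6, 1 and 2, at 29.7 in AngII replicate 5 and at 0 in the other libraries of those groups. With it, the difference of AngII from saline was -0.053 (SE 0.0964, adjusted p = 0.900). No such value can be had for AngII+ETH, and the difference from saline cannot be told apart from the missing transcript.

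Downwards, the smallest p for AngII against saline belonged to Rpl22l1, Rpl9-ps6, Rpl21, Rpsa and Rpl6. Rpl22l1 differed by -0.40 (SE 0.174, limma adjusted p = 0.527) and is described with its partner. Rpl21 had 4.09 FPKM in AngII replicate 6 and 16.4 to 36.5 in the other libraries of the pair of groups. Its difference was -0.44 (SE 0.347, adjusted p = 0.740). Rpsa, also known as the laminin receptor, differed by -0.12 (SE 0.104, adjusted p = 0.755).

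For AngII+ETH against AngII, every member had an adjusted p of 1. The smallest p upwards belonged to Rpl10a, Rpl35, Rps15a, Rps27l and Rps21, with differences of 0.13 to 0.31 log2 units. Rps15a was 29.9 to 45.2 FPKM in AngII (median 35.2) and 25.2 to 81.8 in AngII+ETH (median 39.0). Its difference was 0.28 (SE 0.201), and AngII+ETH replicates 3 and 5, at 81.8 and 60.8 FPKM, were the only ones above the AngII range. Downwards they included Rps27a (-1.0, SE 0.539), Rpl18 (-0.19), Rpl34 (-0.21) and Rpl35a (-0.11). Each of these genes has a transcript listed at 0 in some libraries and high in others. For Rps27a, Rpl34 and Rpl35a it is protein-coding, at 0 in 8, 4 and 2 libraries. Its highest values were 128, 165.6 and 190.5 FPKM in that order. For Rpl18 it is annotated as retaining an intron, at 0 in 10 libraries and at up to 38.4 FPKM.

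With AngII+ETH against saline, Rps13 followed Rpl10a upwards. It lay at 170 to 216 FPKM in AngII+ETH (median 201), above saline by 0.33 log2 units (SE 0.122, limma adjusted p = 0.521). Rpl7l1 was 18.2, 17.9, 18.6, 4.58, 20.1 and 18.04 FPKM in the AngII+ETH replicates, with the longer transcript at 0 in replicate 4, and differed from saline by 1.18 (SE 0.483, adjusted p = 0.582). Rps19bp1 (0.27) and Rps15a (0.36) came next. The smallest p downwards belonged to Rps27a (-0.95), Rpl22l1 (-0.29), Rps27rt (-0.35), Rpl9-ps6 (-0.11) and Rpsa (-0.095), with adjusted p from 0.698 to 0.842.

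Paralogs were compared as ratios within a library, which a common shift of all ribosomal protein genes leaves unchanged. Of 8 pairs listed, 5 could be tested in 3 comparisons each, 15 tests in all. Rpl22l1 and Rpl22, close paralogs of the large subunit, were the pair that differed between groups. Rpl22l1 had a median of 56.5 FPKM under saline (range 47.4 to 64.7), 45.3 under AngII (25.9 to 53.5) and 48.04 under AngII+ETH (29.6 to 53.6). Rpl22 had a median of 60.3 FPKM under saline (58.1 to 75.6), 65.8 under AngII (52.95 to 73.4) and 66.8 under AngII+ETH (56.5 to 72.8). For Rpl22l1 each treated group reached lower than saline, and for Rpl22 the groups overlapped throughout.

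The log2 ratio of Rpl22l1 to Rpl22 was -0.17 ± 0.132 under saline, -0.58 ± 0.311 under AngII and -0.53 ± 0.219 under AngII+ETH (SD, n = 6 each). In AngII, 4 of 6 libraries lay under the lowest saline library, and in AngII+ETH 5 of 6. The ratio fell by 0.41 with AngII against saline (exact two-sided permutation p = 0.00649 over 924 assignments, adjusted p = 0.0487). With AngII+ETH against saline it fell by 0.37 (exact permutation p = 0.00649, adjusted p = 0.0487). Both comparisons share the saline libraries. AngII+ETH and AngII differed by 0.047 (exact permutation p = 0.786, adjusted p = 0.788).

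These calls lay close to the threshold. The lowest ratios were those of AngII replicates 3 and 5 (-1.0 and -0.91) and AngII+ETH replicate 4 (-0.91), which are among the 5 libraries of extreme chamber markers named above. Without these 5 libraries the differences were -0.23 and -0.30 (exact permutation p = 0.0286 and 0.0238, adjusted p = 0.214 for each). With 4 AngII against 4 saline libraries 0.0286 is the smallest p that the test allows, and 9 of the 15 tests would have to reach it for a call, so this p says nothing on stability. All 4 of these AngII libraries (-0.60 to -0.31) lay under the lowest of the 4 saline libraries (-0.30), and 4 of 5 AngII+ETH libraries did. With protein-coding transcripts only they were -0.57 and -0.45 (adjusted p = 0.0974 for each, exact permutation). With single libraries left out, the AngII call held only when the library was AngII replicate 1, 2, 4 or 6, and the AngII+ETH call only when it was AngII+ETH replicate 2. The difference then ran from -0.47 to -0.33 for AngII (adjusted p 0.0487 to 0.211, exact permutation) and from -0.42 to -0.29 for AngII+ETH (adjusted p 0.0325 to 0.162, exact permutation). Rpl22l1 and Rpl22 both rose with the atrial markers over all libraries, by 0.035 and 0.018 log2 units per unit of chamber marker level (limma adjusted p = 0.0164 and 0.0242), but passed neither with median-of-ratios scaling nor without the 5 libraries. Adipoq stood at 105 FPKM in saline replicate 4, at 168 in saline replicate 6 and no higher than 20.4 elsewhere. The part of adipocyte RNA in the result was not tested.

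**Figure D5:**
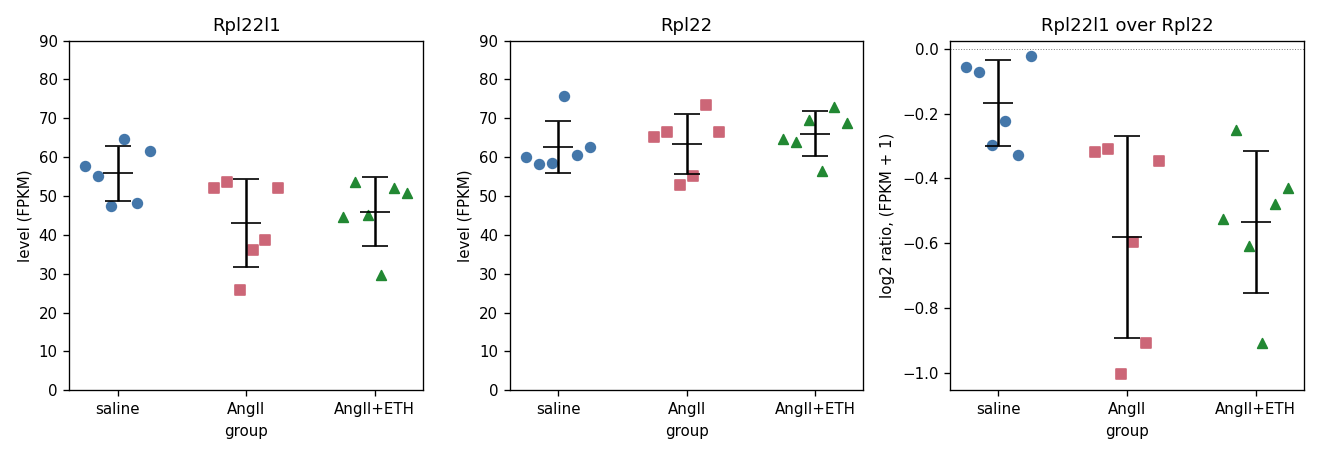
Levels of Rpl22l1 and Rpl22 (FPKM) and the log2 ratio of Rpl22l1 to Rpl22 (with 1 FPKM added to each) by group, with 1 point per library and bars for the mean and SD of 6 libraries. The saline ratios lie between -0.33 and -0.024, and the lowest treated libraries reach -1.0 and -0.91.

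The other pairs gave no call. Rpl7l1 over Rpl7 was 1.31 log2 units higher with AngII than with saline (exact permutation p = 0.0325, adjusted p = 0.162) and 1.19 higher with AngII+ETH (exact permutation p = 0.0628, adjusted p = 0.235). Rpl3l over Rpl3 differed by 0.77, 0.32 and 1.09 in the 3 comparisons (exact permutation, adjusted p = 0.788, 0.788 and 0.724). Its SD within groups was 2.25 under saline, 1.98 under AngII and 1.27 under AngII+ETH, so even a change of 1 log2 unit would lie within the spread. Rps27l, whose gene is induced by p53, over Rps27 differed by -0.13, -0.062 and -0.19. Rpl36al over Rpl36a differed by 0.21, -0.13 and 0.072.

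Genes that make, load or regulate ribosomes were listed by role, and none passed in any comparison. The lists were 78 mitochondrial ribosomal proteins, 51 biogenesis factors, 36 initiation factors, 23 genes of TOP and mTORC1 control, 18 of RNA polymerase I, 12 elongation factors, 12 of MYC and p53 ribosomal stress, 7 ribosome-associated or ubiquitin-fused genes and 74 nuclear genes of oxidative phosphorylation. For AngII against saline, the median log2 fold change was 0.10 for RNA polymerase I, 0.086 for biogenesis and -0.014 for mitochondrial ribosomal proteins, beside -0.057 for all genes. It was 0.056 for elongation factors, 0.0545 for oxidative phosphorylation and 0.028 for MYC and p53 ribosomal stress. The ribosome-associated or ubiquitin-fused genes, initiation factors and TOP and mTORC1 control lay at -0.00023, -0.019 and -0.049. Polr1e, a subunit of RNA polymerase I, was 5.63 ± 1.02 FPKM in AngII and 3.59 ± 1.02 in saline (SD, n = 6 each), a difference of 0.54 log2 units (limma adjusted p = 0.441). Gar1, a protein of the snoRNPs that modify ribosomal RNA, was 4.69 ± 0.890 and 3.25 ± 0.445 FPKM, a difference of 0.41 (SE 0.124, limma adjusted p = 0.486). With AngII+ETH, Cdkn1a, the p53 target p21, was 20.4 ± 3.69 FPKM and with saline 11.7 ± 4.67, a difference of 0.82 (SE 0.251, limma adjusted p = 0.449).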

How the data were processed

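The authors deposited 1 value per transcript and library, read here as FPKM because, times transcript length, 43.6 to 54.1% of low values came within 0.05 of a whole number of fragments, beside 10% by chance. The size of 1 fragment was fitted to the same values, so a part of that share is built in. Limma is named in the submitters' processing notes. The genome build, aligner and assembler were not given in the sources used here. Files of saline and AngII list 30883 transcripts and the AngII+ETH files 30036, with 28886 in common. Of these, 8239 have no gene name and were left out, and 20480 of 20647 Ensembl transcripts matched GENCODE M21. Transcripts without a name or a match held from 11.0% (saline replicate 6) to 16.4% (AngII+ETH replicate 4) of a library's summed level. They held 11.0 and 11.2% where Myl2 was under 10 FPKM, and 14.9, 15.6 and 16.4% where Myl7 was at 0. The part of this difference in the results was not tested.

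Common transcripts were summed per gene. Genes reaching a group mean of 1 FPKM (11704 in number) were tested on log2(FPKM + 1), which understates changes of low genes, with limma 3.58.1 (trend, all 18 libraries in 1 fit) in R 4.3.3. Ratios were tested by exact permutation (Python 3.11.15, scipy 1.17.1). On simulated data, limma recovered 85, 89 and 84% of changes of 1 log2 unit (AngII against saline, AngII+ETH against AngII, then AngII+ETH versus saline), and 100% of changes of 2. False calls numbered 8, 18 and 6 in that order. The changes were placed only in genes of higher level and limited spread, and noise was drawn for each gene on its own. Differences between libraries that many genes share were thus left out. These percentages do not apply to members with a wide spread.

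Named members were those of the pairs, the 5 with the smallest p per direction and comparison, the 5 highest and lowest, and the 3 most variable. Not every member this rule names is reported here. Other genes were named after their values were seen. Members, lists and rules were chosen with earlier results of these data known. Replicate numbers follow accession order and pair nothing. Alternatives covered scaling, pseudocount, filter, trend, weights, groups in the fit, a chamber covariate and libraries left out. The chamber slope, the relations to Myl2 and the values from protein-coding transcripts only were chosen after seeing the data.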

Additional observations from a re-analysis of the deposited data

Results flagged for a closer look

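In 10 of 126 groups of 6 libraries, 1 library stood apart from the others by more than Dixon's critical value for the gap over the range, and chance flags about 1 in 20 groups. Rpl3l was 6.01 FPKM in AngII replicate 5, beside 99.1 to 142 in the other AngII libraries, and Myl2 was 3.37 FPKM in the same library. Rpl22l1 was 29.6 FPKM in AngII+ETH replicate 4, beside 44.7 to 53.6, and Rpl22 was 75.6 in saline replicate 4, beside 58.1 to 62.7. Rpl39 was 201 FPKM in saline replicate 4, beside 124 to 152, and most members were high in that library. Rpl7l1 was 4.58 FPKM in AngII+ETH replicate 4, beside 17.9 to 20.1, and 10.0 in AngII replicate 5, beside 15.7 to 18.7. Rpl7a was 55.3 FPKM in AngII replicate 1, beside 0 to 5.20, and 34.8 in AngII+ETH replicate 3, beside 0 to 1.15. Rps4x, the X-linked small-subunit gene, was 108 FPKM in saline replicate 1, beside 297 to 397, and Rps19bp1 was 7.43 in AngII replicate 4, beside 9.36 to 10.0.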

How the results depend on the processing

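No member passed in any comparison under any alternative run. No median of the members moved by more than the spread between replicates (0.157 log2 units). That limit is wider than the medians themselves, so it cannot show whether their sign is stable. For AngII against saline the median was 0.019, but -0.028 with equal sums and 0.076 with median-of-ratios scaling. The count of all genes passing, 1 for AngII against saline, was 2 with median-of-ratios scaling, 2 with quantile normalization, 3 with library weights, 0 with only the groups compared, 5 with the chamber covariate, 2 without the 5 libraries of extreme chamber markers and 0 with every transcript. For AngII+ETH against saline it was 1, and 4 with library weights, 0 with only the groups compared and 2 without the 5 libraries. For AngII+ETH against AngII it was 0, and 1 without the 5 libraries. With single libraries left out the counts ran from 0 to 11, 0 to 8 and 0 to 0 in that order, and both highest counts came without saline replicate 5. The fall of the Rpl22l1 to Rpl22 ratio, -0.41 and -0.37, lost its call with protein-coding transcripts only (-0.57 and -0.45). Without the 5 libraries it was -0.23 and -0.30. There the smallest p the exact test allows (0.0286 for AngII and 0.00794 for AngII+ETH) could pass only if 9 and 3 of the 15 tests reached it. The p for AngII was at this limit, and that for AngII+ETH (exact permutation p = 0.0238) was above it. With single libraries left out the difference was -0.47 to -0.33 and -0.42 to -0.29, so the -0.23 for AngII lay outside its range. The cause was not tested. With protein-coding transcripts only, the coefficient of variation of the summed Rpl3 and Rpl3l was 17.9% in place of 7.33%, and r of Rpl3 with Myl2 was -0.723 in place of -0.937. No paired analysis was possible, because the labels give each library its own identifier but no replicate number and no pairing. Of 2680 alternative values of named members, 216 had another sign, in 57 of 120 results, none of them a call. Depth limits the low members such as Rpl36a-ps1, and transcripts listed at 0 limit Rpl17, Rpl7a and Rps27a most visibly. Many other members also have a transcript at 0 in some libraries and high in others. Examples are Rps14 (0 in 7 libraries, up to 188 FPKM), Rpl34 (0 in 4, up to 165.6) and Rps15 (0 in 1, up to 400). The summed level of such genes can still vary little, as for Rps14 (coefficient of variation 12.95%).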

Other observations

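Rpl3 was split unevenly between its transcripts. A transcript annotated as retaining an intron was at 102 and 79.7 FPKM in saline replicates 1 and 2, 32.8 in replicate 5 of that group, 76.7 in AngII replicate 2, and no higher than 3.28 elsewhere. The protein-coding transcript ran from 51.8 to 287 FPKM. With protein-coding transcripts only, the log2 ratio of Rpl3l to Rpl3 ran from -5.24 to 1.86 in saline, -5.29 to 0.31 in AngII and -2.86 to 0.39 in AngII+ETH.

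Apart from Rpl3, the members that ran most against Myl2 over the 18 libraries were Rpl10-ps3 (r = -0.902), Rpl10 (r = -0.877) and Rpl4 (r = -0.864). After Rpl3l, the highest was Rps2 (r = 0.608). These are descriptions over libraries that share the chamber differences, and the genes were chosen after their values were seen.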
